A study of Mus musculus with 2669 samples.

Results

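The genes described here are 6 Eph receptors (EPHA3, EPHA4, EPHA5, EPHB1, EPHB2 and EPHB3) and 4 ephrins (EFNA5, EFNB1, EFNB2 and EFNB3), written in capitals as in the deposited table. They were chosen by name, and each was found among the 37310 rows of the count table. EFNA5 also has a second row, which holds no reads. In all, 2669 single cells of embryonic CD1 mouse brain were captured on 37 microfluidic chips. The tissues were the dorsal and the ventral part of the medial ganglionic eminence (dMGE and vMGE) and the caudal ganglionic eminence (CGE), taken at the embryonic stages E12.5 and E14.5. The labels give the CD1 strain for every cell and name no mutant allele, transgene or agent. Cells of dMGE came from 6 chips at E12.5 and 8 chips at E14.5. Cells of vMGE came from 7 chips at E12.5 and 5 chips at E14.5. Cells of CGE came from 6 chips at E12.5 and 5 chips at E14.5. The labels name no embryo or litter, so the chip was used as the replicate, and the p-values below measure only the spread between chips, which may be technical.

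Eph receptors are receptor tyrosine kinases, and ephrins are their ligands on the surface of neighbouring cells. Ephrin-A ligands are held to the membrane by a lipid anchor and mostly bind EphA receptors, whereas ephrin-B ligands span the membrane and mostly bind EphB receptors. EPHA4 is an exception that binds ligands of both classes. Contact between a cell with the receptor and a cell with the ligand signals into both, and in the embryonic forebrain this system is known for repelling migrating cells and axons, for keeping neighbouring territories apart and for steering interneurons on their way from the ganglionic eminences to the cortex. The ganglionic eminences hold cycling progenitors, among them radial glia, and the young inhibitory neurons that these produce.

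After removal of cells with few genes or reads, 2650 cells remained. A cell was called dividing when it had at least 10 of 24 cell cycle markers at 10 CPM or more (CPM, the reads of a gene scaled to the total of all counted reads). It was called neuronal when it had at most 5 of these and at least 5 of 15 neuronal markers. These limits gave 1137 dividing and 636 neuronal cells, while 859 cells met neither definition and 18 carried markers of vessel, connective tissue or immune cells. None of the 10 genes was used for the classes. In summed counts the cell cycle gene TOP2A stood at 1409 CPM in dividing and 164.5 CPM in neuronal cells, and the neuronal gene DCX at 613 and 1680 CPM. Both are among the markers that set the classes, so these differences follow from the definitions. Dividing cells had a median of 15 cell cycle and 7 neuronal markers, and neuronal cells of 2 and 8. The classes thus differed mainly in cell cycle markers, and dividing cells often carried neuronal markers too. Counts per chip ranged from 28145271 to 101482176. The median cell had 3937 detected genes when dividing and 2545.5 when neuronal, at a median of 819294 and 805236 counts, so gene number differed between the classes and depth hardly did. Markers of endothelial, pericyte and microglial cells summed to at most 10.1 CPM in either class. Low sums follow in part from the definitions, since cells with 3 or more of these markers had been set aside. On single chips they reached 85.9 CPM (endothelial, neuronal cells), 105.5 CPM (pericyte and fibroblast, neuronal cells) and 23.15 CPM (microglial, dividing cells). Red blood cell transcripts summed to 348 CPM in dividing and 263 CPM in neuronal cells (from 0.0486 to 4528 CPM over chips of dividing cells and from 0 to 3421 CPM over chips of neuronal cells). Markers of excitatory neurons of the pallium, the neighbouring tissue, summed to 6.32 CPM in dividing and 39.5 CPM in neuronal cells, with up to 570 CPM on 1 chip of neuronal cells. Markers of oligodendrocyte precursors summed to 17.4 and 2.37 CPM. The part of these cells in the results was not tested. The dividing class held 229 cells with 10 or 11 cell cycle markers, and 216 cells with 8 or 9 lay just outside it. Of the 636 neuronal cells, 190 had 4 or 5 cell cycle markers and 95 had just 5 neuronal markers.

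EPHA4 was the most abundant of the 10 genes and the most widely detected. Per kilobase of the gene length that the authors' RPKM values imply, its level in summed counts had a median over chips of 85.7 CPM per kilobase in dividing cells and 114 in neuronal cells. EPHA3 followed in dividing cells with 26.4 and EPHA5 with 7.02 CPM per kilobase. In neuronal cells this order was turned round, with EPHA5 at 25.1 and EPHA3 at 15.7 CPM per kilobase. The transmembrane ephrins EFNB1 and EFNB2 stood at 6.54 and 6.07 CPM per kilobase in dividing cells and at 2.07 and 8.88 in neuronal cells. The B-type receptors were lower: EPHB1 reached 3.37 CPM per kilobase in dividing and 1.10 in neuronal cells, EPHB2 2.80 and 1.32, and EPHB3 0.580 and 0.0955. EFNB3 was at 1.13 and 4.38 CPM per kilobase. EFNA5, the one lipid-anchored ephrin of the set, was lowest in dividing cells at 0.195 and stood at 0.101 in neuronal cells. The ranges over chips of most neighbours in this order overlapped widely. EPHA3 ran from 3.38 to 130 CPM per kilobase over 30 chips of dividing cells and EPHA5 from 0.0215 to 56.2.

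Most cells held at least 1 of the 10 genes at 10 CPM or more. This was the case in all but 4.31% of dividing and 10.53% of neuronal cells. The mean number per cell was 2.78 in dividing and 2.02 in neuronal cells, with at most 8 and 7. A receptor was present in 93.1% of dividing and 86.6% of neuronal cells, an ephrin in 47.7% and 37.0%, and a receptor together with an ephrin in 45.1% and 34.1%. EPHA4 passed 10 CPM in 900 of 1137 dividing cells and in 428 of 636 neuronal cells. Where it was present, its median level was 486 CPM in dividing and 747 CPM in neuronal cells. At the other end, EFNA5 passed 10 CPM in 44 dividing and 21 neuronal cells, and EPHB3 in 81 and 20. Their sums per chip then rested on few cells: in the median chip of neuronal cells, 1 cell supplied 100% of the summed CPM of EPHB3 and 100% of that of EFNA5, against 21.2% for EPHA4 and 28.1% for EPHA5. EFNB3 passed 10 CPM in 89 dividing and 65 neuronal cells, and this share was 66.8% in dividing and 73.25% in neuronal cells. In neuronal cells the share was 92.6% for EPHB1, 72.05% for EPHB2, 57.8% for EFNB1, 57.6% for EFNB2 and 50.5% for EPHA3. EPHA3 and EPHA5 were found together in 266 of 1137 dividing and 73 of 636 neuronal cells, EPHA4 and EPHA5 together in 409 and 220, and EFNB1 and EFNB2 together in 88 and 34. These counts share the depth and gene number of each cell and carry no test.

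**Figure D1:**
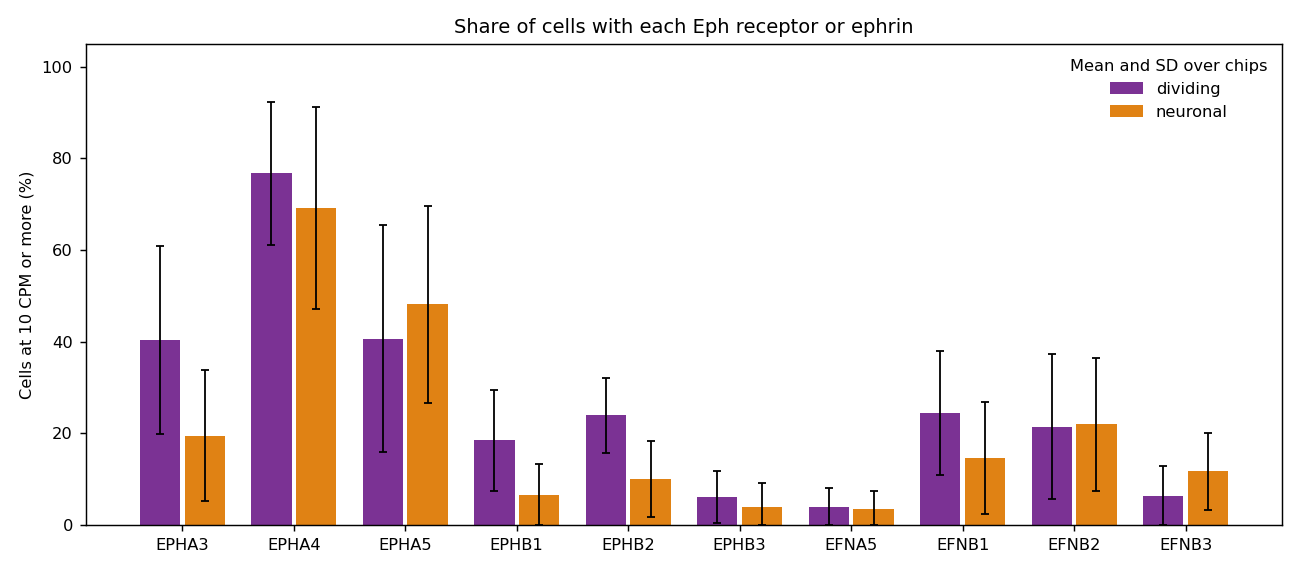
Share of cells with each Eph receptor or ephrin at 10 CPM or more, as the mean over chips (bars) with the SD (lines, cut at 0), for 30 chips of dividing cells (purple) and 26 chips of neuronal cells (orange). EPHA4 is the most widely detected in both classes, and the bars of EPHA5 and EFNB3 are higher in neuronal cells. The bars of EFNB2 are nearly level, at 21.4% in dividing and 21.9% in neuronal cells.

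Neuronal and dividing cells were then compared within chips, over the 23 chips that held at least 10 cells of each class. Of the 10 genes, EPHA5 and EFNB3 rose in neuronal cells and none fell (edgeR's quasi-likelihood test on counts summed per chip and class, chip as a block, Benjamini-Hochberg adjusted p below 0.05 over all genes tested). EPHA5, an EphA receptor of growing axons, was 1.75 ± 0.43 higher on the log2 scale (SE; adjusted p = 0.0119 by edgeR). EFNB3, a transmembrane ephrin known as a midline barrier to axons, was 3.98 ± 0.91 higher (SE; adjusted p = 0.00647 by edgeR). Across all 15164 genes tested, 7.08% were called, 166 higher and 908 lower in neuronal cells, and the median log2 fold was −0.69, so the estimates below are to be read against that shift. The median over the 10 genes was 0.03.

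EPHA5 showed the increase most plainly in the MGE at E14.5. In dMGE at E14.5, its dividing cells stood at 65.7, 54.2, 9.30, 20.2 and 63.8 CPM on chips 90, 92, 97, 99 and 193, and the neuronal cells of the same chips at 100.0, 372, 182, 155 and 186 CPM. In vMGE at E14.5, the dividing cells of chips 91, 93, 96, 98 and 194 stood at 2.83, 8.66, 0.216, 16.6 and 75.2 CPM, and the neuronal cells at 98.8, 395, 183.5, 99.7 and 71.2 CPM. Neuronal cells were thus higher on all 5 chips of dMGE and on 4 of 5 chips of vMGE, the exception being chip 194. In dMGE at E12.5, EPHA5 was at 115.5, 122, 85.8 and 312.5 CPM in dividing cells of chips 173, 176, 184 and 195 and at 392, 307, 511 and 230.5 CPM in neuronal cells. In vMGE at E12.5 it was at 41.3, 60.2 and 115 CPM in dividing cells of chips 174, 185 and 196 and at 399, 77.4 and 50.6 CPM in neuronal cells. One chip in each of these groups, 195 and 196, went the other way. In CGE at E12.5, chips 175, 182 and 187 gave 352, 148 and 220 CPM in dividing and 570, 411 and 197 CPM in neuronal cells. In CGE at E14.5, chips 160, 161 and 162 gave 387.5, 186 and 563.5 CPM in dividing and 273, 602 and 494 CPM in neuronal cells. There the classes overlapped, and neuronal cells were higher on 1 of 3 chips. Over all groups neuronal cells were higher on 17 of 23 chips.

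EFNB3 was higher in neuronal cells on 22 of 23 chips, from low levels in dividing cells. In vMGE at E14.5 the dividing cells of chips 91, 93, 96, 98 and 194 stood at 0.0716, 3.64, 0, 17.4 and 0.0744 CPM, and the neuronal cells at 223, 41.6, 13.9, 203 and 17.7 CPM. In dMGE at E14.5, chips 90, 92, 97, 99 and 193 gave 1.01, 0.139, 14.1, 0.0592 and 4.79 CPM in dividing and 81.8, 6.70, 8.38, 84.3 and 20.9 CPM in neuronal cells. The 1 chip that went the other way was chip 97. In dMGE at E12.5, dividing cells of chips 173, 176, 184 and 195 stood at 1.52, 0.587, 7.86 and 0 CPM and neuronal cells at 10.9, 66.3, 23.8 and 12.6 CPM. In vMGE at E12.5, chips 174, 185 and 196 gave 10.1, 1.07 and 1.17 CPM in dividing and 22.1, 13.9 and 2.20 CPM in neuronal cells. All of these 7 chips of E12.5 were higher in neuronal cells, as were all 6 chips of CGE. Chips 175, 182 and 187 of E12.5 had 10.9, 4.54 and 0 CPM in dividing and 17.7, 6.69 and 1.49 CPM in neuronal cells, and chips 160, 161 and 162 of E14.5 had 3.56, 4.89 and 0.145 CPM in dividing and 40.5, 5.47 and 5.09 CPM in neuronal cells. EFNB3 passed 10 CPM in 12.9% of neuronal cells as a mean over the 23 chips, against 5.08% of dividing cells. This share was higher in neuronal cells on 21 of the 23 chips. When every cell was thinned to 100000 counts, the share with a read was higher in neuronal cells on all 23 chips (13.9% against 5.96%).

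Both calls ended when the chips numbered below 160, all of them MGE of E14.5, were left out. That leaves 1 chip each of dMGE and vMGE at E14.5, and the estimate for EPHA5 was 0.76 (adjusted p = 0.497 by edgeR) and that for EFNB3 was 3.61 (adjusted p = 0.219 by edgeR). The EFNB3 call also ended among cells with 2500 to 4000 detected genes (4.74, adjusted p = 0.342 by edgeR), under stricter class limits (3.33, adjusted p = 0.430; this and the range of gene numbers were set after the data were seen) and under a stricter cell filter (3.66, adjusted p = 0.0644), all by edgeR. Over the alternatives its estimate ran from 1.29 to 4.74. The lowest value came from limma on log2(mean CPM + 10), a scale that shrinks the change of low genes, and was still called there (adjusted p = 0.000587 by limma).

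**Figure D2:**
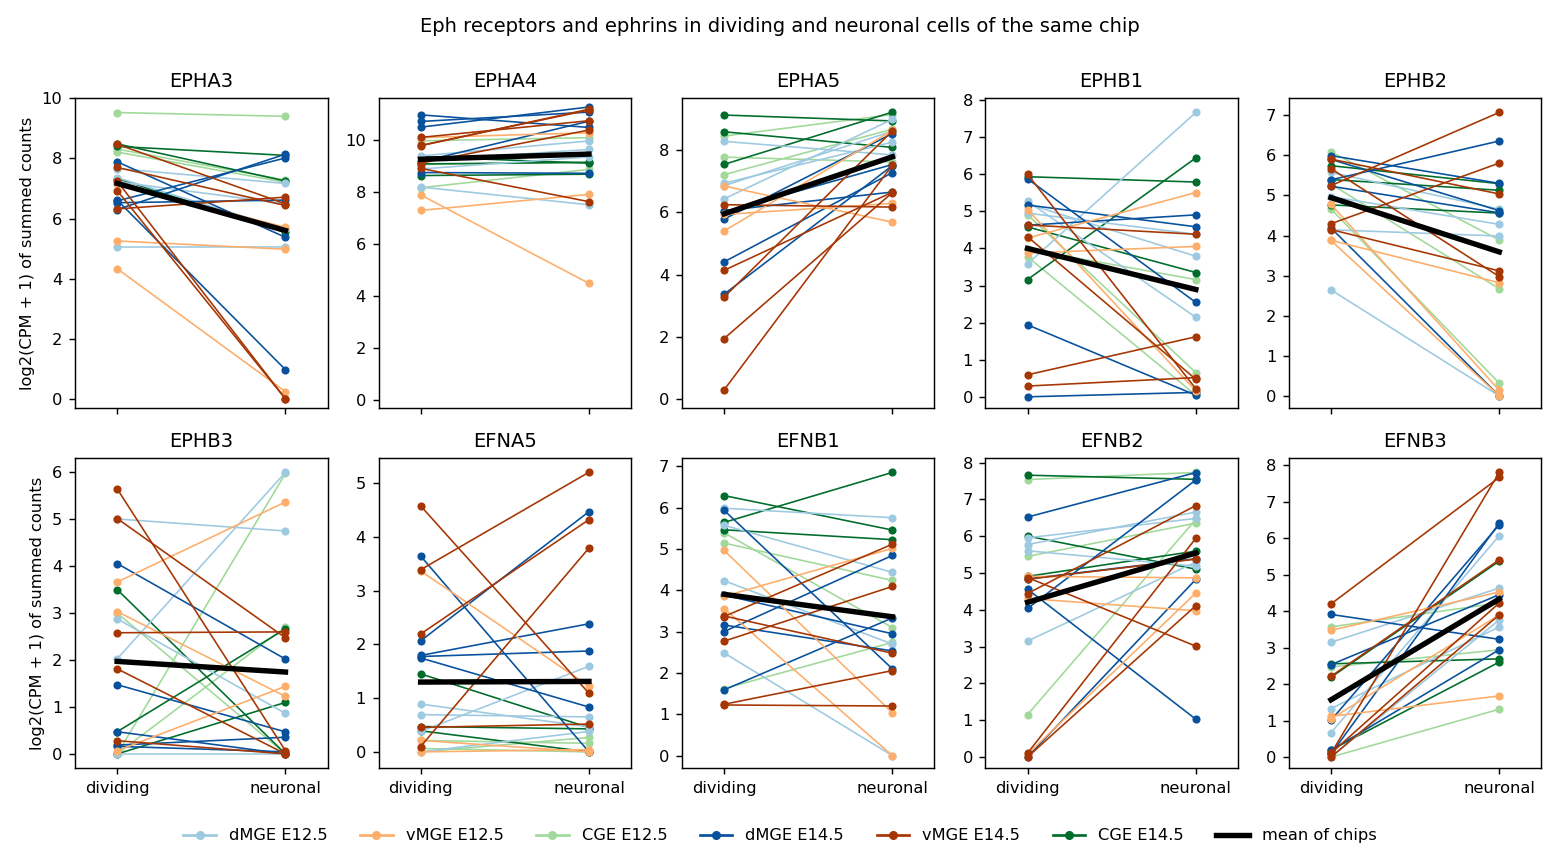
Level of each gene as log2(CPM + 1) of counts summed over the dividing cells and over the neuronal cells of a chip; each thin line joins the 2 values of 1 of 23 chips, coloured by group, and the thick black line joins the means. The lines of EFNB3 go up on 22 of 23 chips and those of EPHA5 on 17 of 23, while those of EPHB2 go down on 20 of 23.

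Among the other receptors, EPHB2, EPHB1 and EPHA3 had estimates below 0. EPHB2, an EphB receptor that guides axons and synapses, had a log2 fold of −2.18 ± 0.77 (SE, adjusted p = 0.0943 by edgeR). Its level ran from 5.255 to 67.1 CPM (median 36.5) in dividing cells and from 0 to 133.5 CPM (median 18.4) in neuronal cells of the 23 chips, and neuronal cells were lower on 20 of them. EPHA3, a receptor best known from axon repulsion, had a log2 fold of −1.39 ± 0.65 (SE, adjusted p = 0.235 by edgeR). It ran from 19.1 to 737 CPM (median 151) in dividing and from 0 to 675 CPM (median 88.8) in neuronal cells, and neuronal cells were lower on 18 of 23 chips. On chips numbered 160 and above its estimate was −3.03, and it was called lower there (adjusted p = 0.0280 by edgeR, with 209 of 17266 genes called). It was also called lower by DESeq2 (−1.42, adjusted p = 0.0152, with 3984 of 15164 genes called) and with no filter on low counts (adjusted p = 0.0178 by edgeR, with 1193 of 27646 genes called). The share of cells with EPHA3 differed more evenly than its level. At 10 CPM or more it was 37.9% of dividing and 20.5% of neuronal cells as a mean over chips, and no chip had the higher share in neuronal cells. After thinning to 100000 counts the shares were 41.2% and 23.1%, again with no chip higher in neuronal cells. Where EPHA3 was present, the median level was 271 CPM in dividing and 416.5 CPM in neuronal cells. EPHB1, a receptor for ephrin-B ligands, was found at 10 CPM or more in 16.1% of dividing and 6.91% of neuronal cells, with a log2 fold of −1.45 ± 0.97 (SE, adjusted p = 0.473 by edgeR). The lower number of detected genes in neuronal cells goes in the same direction as these shares, and its part in them was not tested.

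EPHA4 showed no called difference between the classes, with a log2 fold of 0.24 ± 0.21 (SE, adjusted p = 0.660 by edgeR, approximate 95% interval −0.18 to 0.66). Its level ran from 155 to 1986 CPM (median 567) in dividing and from 21.4 to 2447 CPM (median 790) in neuronal cells, and neuronal cells were higher on 17 of 23 chips. EPHB3 had an estimate of 1.14 ± 1.40 (SE, adjusted p = 0.837 by edgeR). Of the ephrins not called, EFNB2, a ligand also known from arteries, had 1.57 ± 0.85 (SE, adjusted p = 0.326 by edgeR), EFNB1 −1.003 ± 0.74 (adjusted p = 0.543 by edgeR) and EFNA5 −0.19 ± 0.86 (adjusted p = 1 by edgeR). For EFNB2 neuronal cells were higher on 16 chips, for EFNB1 on 8 and for EFNA5 on 11 of 23. A p that misses the threshold does not show that these levels were alike, since the standard errors of EPHB1, EPHB3 and the 3 ephrins ranged from 0.74 to 1.40 on the log2 scale.

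**Figure D3:**
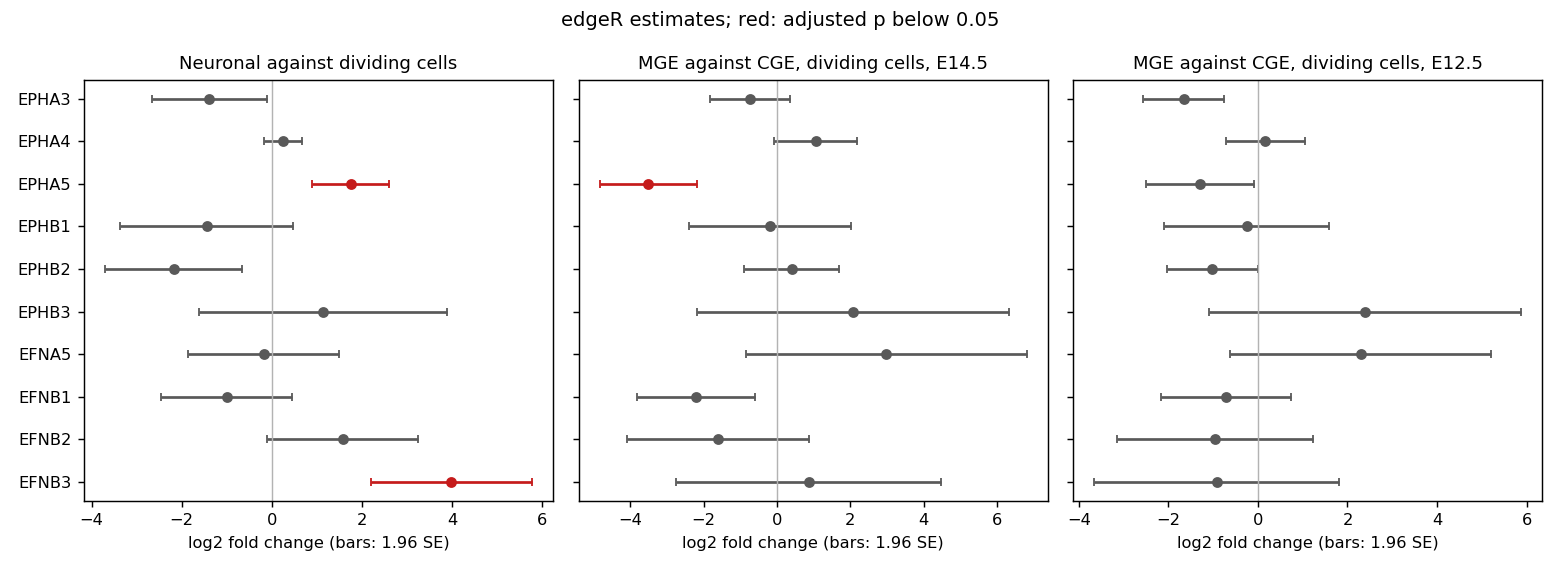
Log2 fold changes estimated by edgeR for each gene (points) with the 95% interval from the SE (lines); red marks an adjusted p below 0.05. Left, neuronal against dividing cells over 23 chips; middle and right, MGE against CGE in dividing cells at E14.5 and E12.5, over 30 chips in all 6 groups. EPHA5 and EFNB3 are red on the left at 1.75 and 3.98, and EPHA5 is red in the middle at −3.51.

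Whether the difference between neuronal and dividing cells was itself different between regions or ages was tested in the same fit. None of the 10 genes was called for MGE against CGE or for E14.5 against E12.5 by edgeR, and neither were any of the 15164 genes (0% in both). At an unadjusted p under 0.05 there were 0 of the 10 genes for the regions and 1, EPHB2, for the ages (2.4% of all genes). DESeq2 called 1 of the 10 for the regions, where it called 3.61% of all genes, and 2 for the ages, where it called 3.92%. With limma 0 of the 10 were called for either. For EPHA5 the difference was 1.77 ± 0.93 larger in MGE than in CGE and 1.48 ± 0.86 larger at E14.5 than at E12.5 (SE, adjusted p = 1 for both by edgeR). The MGE at E14.5 was not set against the other groups in a test of its own, so its larger EPHA5 difference is a description.

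Regions were compared within each class. In dividing cells EPHA5 fell in MGE relative to CGE at E14.5, by 3.51 ± 0.68 on the log2 scale (SE, adjusted p = 0.0173 by edgeR), and was the only one of the 10 genes called among 0.812% of 15263 genes. CGE chips 160, 161 and 162 stood at 387.5, 186 and 563.5 CPM. The 6 chips of dMGE had a lowest value of 9.30, a highest of 65.7 and a mean of 39.8 ± 24.4 CPM (SD, n = 6). The 5 chips of vMGE stood at 2.83, 8.66, 0.216, 16.6 and 75.2 CPM. All 11 MGE chips lay below all 3 CGE chips. At E12.5 the order was the same with overlap. CGE chips 172, 175, 179, 182 and 187 gave 224, 352, 193, 148 and 220 CPM, dMGE chips 170, 173, 176, 184 and 195 gave 127, 115.5, 122, 85.8 and 312.5 CPM, and the 6 vMGE chips ran from 31.5 to 115 CPM. The estimate was −1.29 ± 0.61 (SE, adjusted p = 0.592 by edgeR), and 10 of 11 MGE chips lay below all CGE chips.

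The E14.5 call is confounded in most chips with the chip number. Of the 11 MGE chips of E14.5 with enough dividing cells, 9 were numbered below 160, and all CGE chips 160 or above. The 2 MGE chips numbered above 160, chips 193 and 194, stood at 63.8 and 75.2 CPM, against a median of 16.6 CPM on the other 9. With chips numbered 160 and above alone the estimate was −2.37 (adjusted p = 0.392 by edgeR), with the chip series as a covariate −1.94 (adjusted p = 0.747 by edgeR), and leaving out any 1 of the 3 CGE chips also ended the call (−3.55 without chip 160, −3.83 without chip 161 and −3.04 without chip 162). Of these 11 MGE chips, 4 had a median of over 4% mitochondrial counts, and without such chips (a choice made after the data were seen) the estimate was −3.04 (adjusted p = 0.0615 by edgeR). The call also ended among cells with 2500 to 4000 detected genes (−3.91, adjusted p = 0.126 by edgeR) and with classes taken from clusters (−3.10, adjusted p = 0.0524 by edgeR). Over all cells of a chip, the median number of detected genes ran from 3576.5 to 4201 on these 3 CGE chips and from 2176 to 3312.5 on the 11 MGE chips.

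EPHA3 at E12.5 and EFNB1 at E14.5 followed the same order in dividing cells without being called. At E14.5, 9 of 11 MGE chips for EFNB2 and 8 of 11 for EPHA3 also lay below all CGE chips. Others of the 10 genes, also not called, went the other way. For EFNA5 at E14.5 8 of 11 MGE chips, and for EPHB3 at E12.5 6 of 11, lay above all CGE chips. The share of all genes with such an order was not determined. EPHA3 in CGE at E12.5 stood at 277, 737, 310, 295 and 316.5 CPM on chips 172, 175, 179, 182 and 187. In dMGE at E12.5 it stood at 465, 148, 202, 163 and 32.2 CPM on chips 170, 173, 176, 184 and 195, and in vMGE at 19.1 to 141 CPM over 6 chips. All MGE chips but chip 170 lay below all CGE chips, and the log2 fold was −1.66 ± 0.46 (SE, adjusted p = 0.253 by edgeR), in a comparison with 0.0197% of 15263 genes called. At E14.5 the EPHA3 estimate was −0.74 ± 0.55 (SE, adjusted p = 0.611 by edgeR). EFNB1, which in patterning tissues marks boundaries between cell groups, stood at 43.2 to 77.4 CPM on the 3 CGE chips of E14.5 and at 1.34 to 60.25 CPM on the 11 MGE chips, 10 of which lay below all CGE chips (−2.22 ± 0.82, SE, adjusted p = 0.206 by edgeR). At E12.5 it ran from 2.08 to 95.65 CPM on the 5 CGE chips and from 4.60 to 62.4 CPM on the 11 MGE chips, 0 of which lay below all CGE chips (−0.71 ± 0.74, SE, adjusted p = 1 by edgeR). Of the 10 genes, 2 passed an unadjusted p under 0.05 at E12.5 (EPHA3 and EPHA5), as did 8.02% of all genes, and 2 at E14.5 (EFNB1 and EPHA5), as did 13.5%. DESeq2 called EPHA3 at E12.5 (1 of the 10, and 2.29% of all genes) and limma none of the 10 there. At E14.5 EPHA5 was the 1 gene of the 10 called by DESeq2 (6.61% of all genes) and by limma (1.33%).

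**Figure D4:**
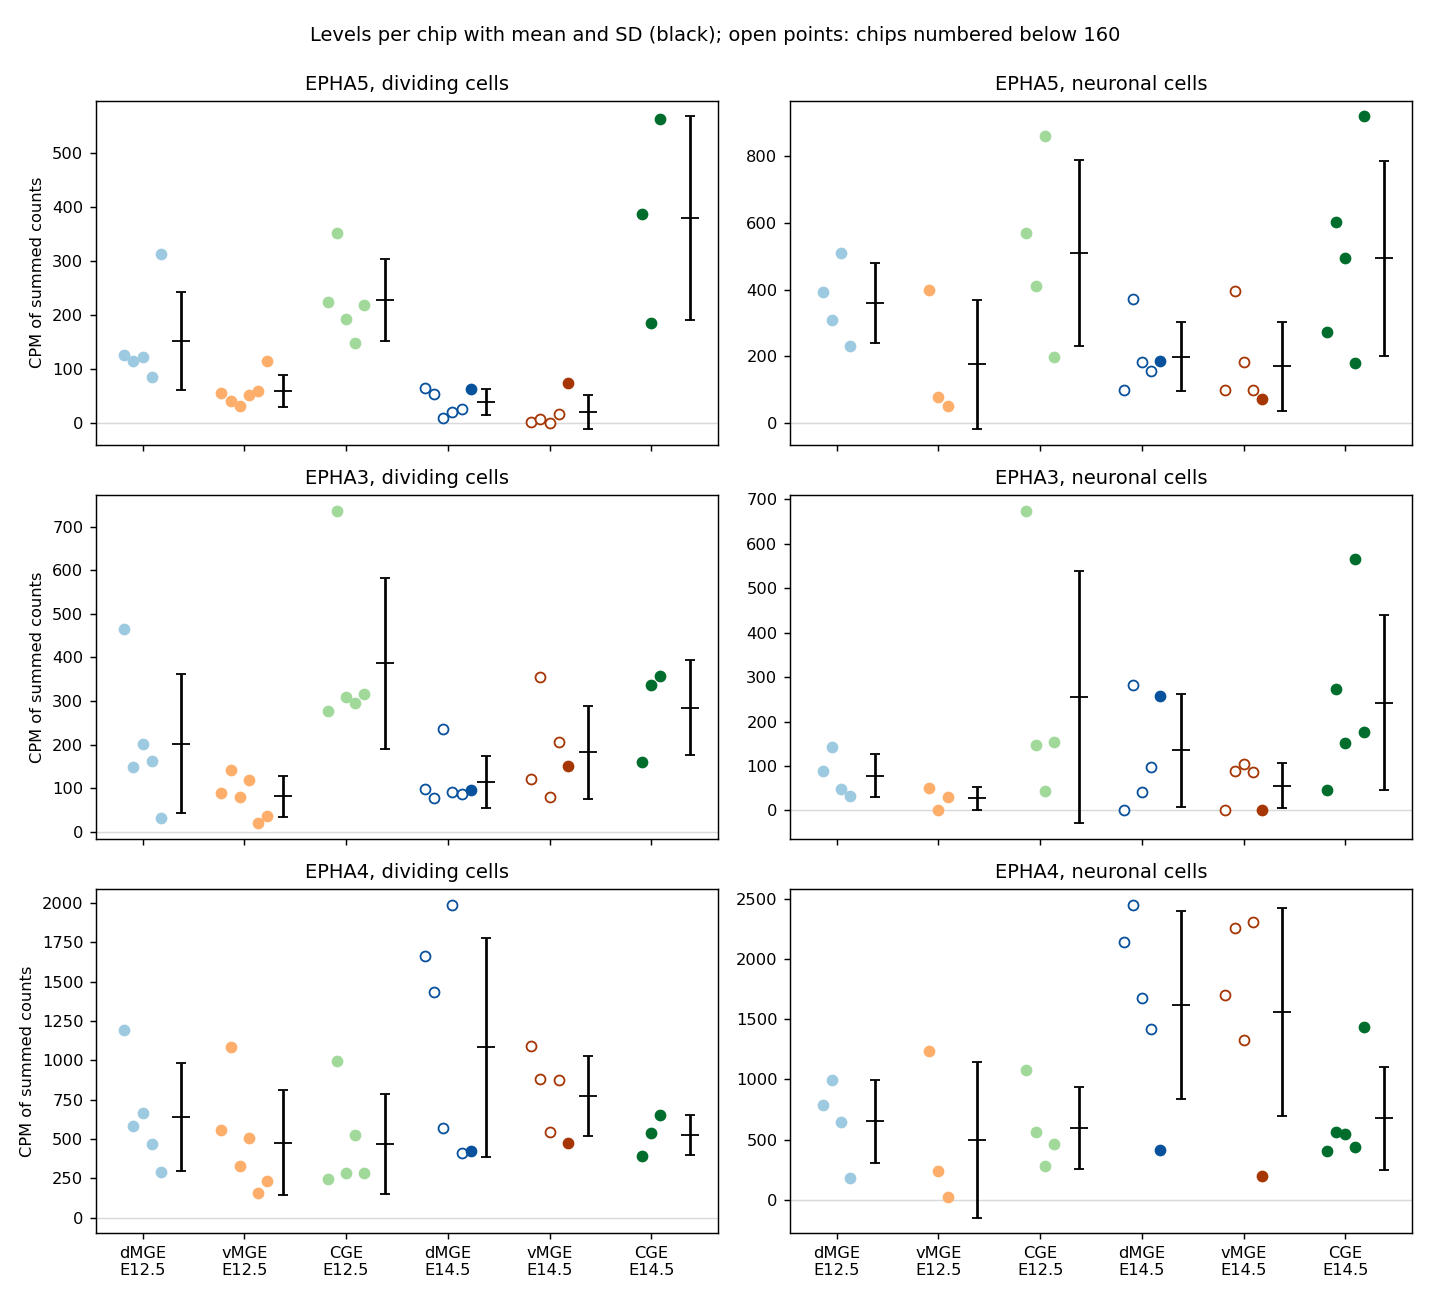
CPM of summed counts of EPHA5, EPHA3 and EPHA4 in each chip (points) by group, with the mean and SD in black at the right of each group, in dividing (left) and neuronal cells (right); open points are chips numbered below 160. In dividing cells all 11 E14.5 MGE chips of EPHA5 lie below the 3 CGE chips, and in neuronal cells the open points of EPHA4, at 1326 CPM or more, lie above the 2 filled MGE points of E14.5, at 196 and 418 CPM.

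In neuronal cells none of the 10 genes was called between regions. At E12.5, MGE against CGE, 0 of 12727 genes were called (0%), and at E14.5 0.0157% were. EPHA5 again stood lower in MGE, at −1.33 ± 0.61 at E12.5 (adjusted p = 0.419) and −1.48 ± 0.53 at E14.5 (adjusted p = 0.169, both SE and edgeR). CGE chips 160, 161, 162, 189-2 and 190-2 of E14.5 had 273, 602, 494, 178 and 921 CPM, and the 10 MGE chips ran from 71.2 to 395 CPM with a median of 168, so the groups overlapped. EFNA5, a ligand of EphA receptors, went the other way at E14.5. It was at or below 0.368 CPM on all 5 CGE chips and ran from 0 to 35.9 CPM on the 10 MGE chips, 9 of which lay above all CGE chips (6.09 ± 2.46, SE, adjusted p = 0.214 by edgeR). Its 8 MGE chips numbered below 160 averaged 12.1 ± 12.6 CPM (SD, n = 8) and chips 193 and 194 stood at 0.784 and 0.433 CPM, while all CGE chips are numbered 160 or above. Region and chip number thus cannot be told apart for most of these chips. At an unadjusted p under 0.05 there was 1 of the 10 genes at E12.5 (EPHA5; 10.9% of all genes) and 2 at E14.5 (EFNA5 and EPHA5; 15.1% of all genes). DESeq2 called 0 and 1 of the 10, the latter beside 5.96% of all genes, and limma 0 at both ages.

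None of the 10 genes was called between dorsal and ventral MGE. In dividing cells 0 of 15263 genes were called at E12.5 and 0 at E14.5, and in neuronal cells 0 of 12727 at either age (0% in all 4). At an unadjusted p under 0.05 this held for 1 of the 10 genes in dividing cells at E12.5, EPHA3 (6.5% of all genes), and for 0 in the other 3 comparisons. DESeq2 and limma called 0 of the 10 in each. EPHA3 in dividing cells at E12.5 averaged 202 ± 160 CPM in dMGE (SD, n = 5) and 81.0 ± 46.8 CPM in vMGE (SD, n = 6). The estimates were imprecise, and in neuronal cells at E12.5 the standard error ran from 0.78 for EPHA5 to 2.89 for EPHB3. Many dMGE and vMGE chips of 1 age carry adjacent numbers, which the labels do not tie together. In a fit of such chips alone with each pair of numbers as a block, chosen after the data were seen, 0 of the 10 genes and 0 of all genes were again called by edgeR in each of the 4 comparisons. There 1 of the 10 passed an unadjusted p under 0.05, EPHA5 in dividing cells at E14.5, beside 548 of 12821 genes. It was lower in vMGE in 4 of 5 pairs, with a log2 fold of −2.53 ± 1.003 (SE, adjusted p = 1 by edgeR).

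Between the ages, none of the 10 genes was called in CGE or in MGE. In CGE, 0.00655% of genes were called in dividing cells and 0% in neuronal cells. At an unadjusted p under 0.05 there were 0 of the 10 in dividing and 1 in neuronal cells (EPHB1; 6.52% of all genes), with 0 called by DESeq2 and by limma in either class. In MGE more genes were called, 6.09% in dividing and 0.236% in neuronal cells, and none of the 10 was among them by edgeR. At shares of this size, 0 calls among 10 genes say little about these genes. In dividing cells of MGE, 5 of the 10 passed an unadjusted p under 0.05, as did 22.2% of all genes. These were EPHA4 (0.93 ± 0.36), EPHB2 (1.14 ± 0.43) and EFNA5 (2.44 ± 1.10) with later cells higher, and EPHA5 (−1.60 ± 0.52) and EFNB1 (−1.40 ± 0.62) with later cells lower (SE; adjusted p = 0.107, 0.103, 0.179, 0.0578 and 0.169 by edgeR). DESeq2 called 3 of the 10 and 13.1% of all genes there, and limma 2 of the 10 and 8.67% of all genes. In neuronal cells of MGE, EPHA4 and EFNA5 passed an unadjusted p under 0.05, as did 20.4% of all genes. DESeq2 called 3 of the 10 and 16.2% of all genes, and limma 0 of the 10.

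EPHA4 in the MGE shows how far age and chip number go together. Its neuronal cells averaged 586 ± 453 CPM at E12.5 (SD, n = 7) and 1588 ± 777 CPM at E14.5 (SD, n = 10), a log2 fold of 1.71 ± 0.59 (SE, adjusted p = 0.119 by edgeR). At E14.5 the 8 chips numbered below 160 ran from 1326 to 2447 CPM. Chips 193 and 194, of the same age and regions, stood at 418 and 196 CPM, inside the range of 21.4 to 1233 CPM seen at E12.5, where all chips are numbered 160 or above. In dividing cells the 9 chips below 160 ran from 413 to 1986 CPM and chips 193 and 194 stood at 427 and 477.5 CPM. EPHB2 in dividing cells gave the same order, with 18.6 to 98.2 CPM on the 9 chips below 160 and 17.2 and 16.7 CPM on chips 193 and 194. With the chip series as a covariate the age estimates in dividing cells were −0.20 ± 0.62 for EPHA4, −0.33 ± 0.74 for EPHB2 and −0.03 ± 0.85 for EPHA5 (SE), so for EPHA4 and EPHB2 the sign turned. In these chips age and chip series can hardly be told apart.

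Within the dividing cells, those rich in radial glia markers (at least 5 of 10 markers at 10 CPM or more) were compared with those poor in them (at most 3) on 23 chips. None of the 10 genes was called, against 1.17% of 14227 genes. EPHB1 came closest, at 2.14 ± 0.73 (SE, adjusted p = 0.156 by edgeR). It averaged 55.4 ± 62.1 CPM in marker-rich and 14.45 ± 17.8 CPM in marker-poor cells (SD, n = 23) and was higher in marker-rich cells on 20 of 23 chips. It was the 1 gene of the 10 at an unadjusted p under 0.05 (13.8% of all genes), and it was called by DESeq2 beside 15.6% of all genes and by limma beside 1.86%. EPHB1 passed 10 CPM in 171 of 550 marker-rich cells (31.1%, 95% Wilson interval 27.4 to 35.1%) and in 40 of 381 marker-poor cells (10.5%, 7.81 to 13.98%). EPHA3 passed it in 51.3% (47.1 to 55.4%) and 31.5% (27.0 to 36.3%), with a log2 fold of 0.79 ± 0.52 (SE, adjusted p = 0.553 by edgeR). The intervals cover counting error only. Marker-rich cells had a median of 4349.5 detected genes and marker-poor cells 3299, which goes in the same direction as these shares, and its part in them was not tested. EPHA4 had an estimate of −0.41 ± 0.21 (SE, adjusted p = 0.395 by edgeR).

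MGE neuronal cells were divided by LHX8, a transcription factor of future striatal and septal neurons, and LHX6, which marks MGE neurons at large. Cells with LHX8 at 10 CPM or more (86 cells) were set against cells with LHX6 at that level and no LHX8 read (160 cells). Only 2 chips, both vMGE of E14.5, had at least 5 cells of each kind, and there 0.0777% of 6438 genes were called and none of the 8 of the 10 genes that passed the filter on low counts. EPHA4 was lower in LHX8 cells on both chips, at 787 ± 394 against 2956 ± 764 CPM (SD, n = 2), a log2 fold of −1.997 ± 0.66 (SE, adjusted p = 1 by edgeR). It was the 1 gene of the 10 at an unadjusted p under 0.05 (2.19% of all genes). DESeq2 called 1 other of the 10, EFNB2, beside 4.55% of all genes, and limma called 0. Over all MGE neuronal cells of these kinds, EPHA4 passed 10 CPM in 48 of 86 LHX8 cells (55.8%, 95% Wilson interval 45.3 to 65.8%) and in 137 of 160 LHX6 cells (85.6%, 79.35 to 90.2%). EPHA5 passed it in 23.3% (15.6 to 33.2%) and 44.4% (36.9 to 52.1%). The 2 kinds had similar medians of detected genes, 2574.5 and 2517. These cells were drawn unequally from 21 and 22 chips, so the shares are a description. On the 9 chips with at least 3 cells of each kind, a limit set after the data were seen, EPHA4 was lower in LHX8 cells on 6. EPHA5 was lower in LHX8 cells on 5 of these 9 chips and higher on 4. EFNB2, which was higher in LHX8 cells on both of the 2 chips, was likewise lower on 5 of the 9 and higher on 4.

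The rest of the family was compared in the same way. Of 8 other Eph receptors, 6 passed the filter on low counts in the comparison of neuronal with dividing cells, 0 rose and 1, EPHB4, fell. Among these 6, EPHA1, EPHA6 and EPHA10 had an SE of 437.5 or more and EPHB6 had none. The SE was derived from the estimate and its test statistic, so it grows without limit as that statistic nears 0. For these genes it gives no usable interval and does not tell how large a change could have been seen. EPHB4, a receptor known from veins, was at 8.85 ± 11.3 CPM in dividing and 1.53 ± 4.18 CPM in neuronal cells (SD, n = 23; log2 fold −5.69 ± 1.35, SE, adjusted p = 0.0115 by edgeR). EPHA7, EFNA2 and EFNA4 are named for their abundance within their lists, a choice made after their values were seen. EPHA7, at 9.05 ± 9.57 and 12.01 ± 18.6 CPM, was not called. The others averaged under 4 CPM in both classes. Of 4 other ephrins, all tested, none was called, and for EFNA1 (SE 8653) and EFNA3 (no SE) the SE again gave no usable interval. EFNA2, a lipid-anchored ligand, stood at 32.2 ± 28.0 CPM in dividing and 45.8 ± 46.0 CPM in neuronal cells (SD, n = 23). EFNA4, also lipid-anchored, stood at 8.09 ± 10.95 and 15.5 ± 19.8 CPM, and EFNA5 at 3.15 ± 5.45 and 4.52 ± 9.13 CPM. The remaining 2 ephrins averaged under 2 CPM in both classes. Of 32 intracellular partners of the receptors, 31 were tested and 1 was called, CFL1, the actin-severing protein cofilin, which rose by 0.43 ± 0.09 (SE, adjusted p = 0.00224 by edgeR). The fits of ARHGEF15, VAV3 and RIN1 in this list also had no usable SE. Of 8 partners of ephrin-B reverse signalling, all tested, none was called. The median log2 folds of these lists were −0.64, −0.35, −0.18 and −0.37 in that order, against −0.69 over all genes. These medians include the estimates without a usable SE.

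The genes whose level over the 46 columns (2 classes on 23 chips) was most like that of EPHA4 were CELF2 (Pearson r = 0.85), KLHL9 (0.85) and GM15800 (0.84), out of 15163 genes. Those most like EPHA5 were SLAIN1 (0.79), D0H4S114 (0.77) and SYT1 (0.74), and those most like EFNB3 were NSG2 (0.70), BCL11B (0.62) and ANK3 (0.60). SYT1, a synaptic vesicle protein, is one of the neuronal markers used for the classes. For the other 7 genes the highest r was between 0.60 and 0.73. Within the set, EPHA4 and EFNA5 were most alike (0.56), followed by EFNB1 and EFNB2 (0.49). The columns share chips, depth and class, so these are descriptions. In neuronal cells of MGE at E14.5, EPHA4 and EFNA5 averaged 1909 and 12.1 CPM on the 8 chips numbered below 160. On the 2 chips numbered 160 and above they averaged 307 and 0.609 CPM. The sums of EFNA5 also rested on few cells. The part of either in their likeness was not tested. Of the cells set aside, 8 had at least 3 endothelial markers, and EPHA4 passed 10 CPM in 5 of them, EFNB2 in 4 and EPHB1 in 3. In 6 cells with microglial markers EPHA4 passed it in 1 and EFNB2 in 0. Reads of EPHA4 thus also appeared in cells with markers of other types.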

How the data were processed

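The deposited table holds whole-number counts of reads per gene and cell. The authors also deposited RPKM values for the same cells, of which those of 1 chip (69 cells) were used here, only to recover the gene length behind each value. Per the submitters' processing notes, CASAVA, FastQC, STAR 2.4.0, SAMtools and HTSeq 0.6.1 were used with the mm9 build, and per the labels' protocols the libraries were full-length cDNA after poly-A capture. The annotation and strand setting are not given in the sources used here. Without molecular identifiers reads are not independent molecules. The Wilson intervals on shares of cells cover counting error only, whereas the intervals on log2 folds come from fits over chips. Cells needed at least 1000 genes and 50000 counts, and doublets were not called. The 10 genes, the lists and the tests were chosen with earlier results of these data known, and the class limits were set from the distributions of the markers. All 10 genes were to be named in each comparison, with the genes of each related list that passed the threshold (at most 4 per list) and the 3 genes most alike in pattern. Counts were summed per chip and class (at least 10 cells, or 5 for kinds within a class) and tested with edgeR 4.0.16 (TMM, filterByExpr, quasi-likelihood), after a check on simulated counts. Fits within chips had the chip as a block, since both classes of a chip share its capture and sequencing. The SE of an edgeR estimate was its absolute value divided by the square root of its F statistic. DESeq2 1.42.0, limma 3.58.1, other filters, class definitions, depths and sets of chips were alternatives.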

Additional observations from a re-analysis of the deposited data

Results flagged for a closer look

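A chip stood far from the other chips of its group in 23 of 100 combinations of gene, class and group tested (Dixon's criterion, 4 to 10 chips). The criterion assumes normally distributed values and was applied to CPM without a log scale. The number flagged thus cannot be set against a rate expected by chance. In all 23 it was the highest chip of its group. In dividing cells of dMGE at E14.5, chip 97 was apart in 4 genes, with EPHA3 at 236.0 CPM, EFNA5 at 11.53 CPM, EFNB1 at 60.25 CPM and EFNB3 at 14.05 CPM. Chip 97 had a median of 5.64% mitochondrial counts, and the part of this in the values was not tested. The other chips apart in dividing cells were chip 194 of vMGE at E14.5 in EPHA5 (75.17 CPM), chip 98 of the same group in EFNB3 (17.37 CPM), chip 195 of dMGE at E12.5 in EPHA5 (312.5 CPM), chip 173 of that group in EPHB3 (31.03 CPM), chip 196 of vMGE at E12.5 in EPHA5 (114.6 CPM), chip 175 of CGE at E12.5 in EPHA3 (736.8 CPM) and chip 172 of that group in EPHB1 (78.06 CPM).

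In neuronal cells of dMGE at E14.5, chip 193 was apart in EPHB3 (3.049 CPM) and chip 92 in EFNA5 (21.21 CPM) and EFNB1 (27.73 CPM). In vMGE at E14.5 this was chip 93 in EPHB1 (19.87 CPM). In CGE at E14.5, chip 190-2 was apart in EPHA4 (1434 CPM), chip 161 in EPHB3 (5.33 CPM) and chip 160 in EFNB3 (40.47 CPM). In dMGE at E12.5, chip 195 was apart in EPHB1 (202.5 CPM) and chip 176 in EFNA5 (2.021 CPM). In CGE at E12.5, chip 182 was apart in EPHB1 (7.946 CPM), chip 175 in EPHB3 (61.73 CPM) and chip 186 in EFNA5 (11.13 CPM).

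The 859 cells that met neither class definition entered no comparison. At least 1 of the 10 genes stood at 10 CPM or more in 75.55% of them.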

How the results depend on the processing

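Counts in brackets are those called over all genes tested. Of the 10 genes, 2 were called between neuronal and dividing cells (1074 of 15164). DESeq2 called 6 (3984 of 15164), classes from clusters made without the 10 genes 4 (EFNB3, EPHA4, EPHA5 and EPHB1; 1184 of 16405), and 1 was called among cells with like gene numbers (EPHA5; 233 of 14018), on chips numbered 160 and above (EPHA3; 209 of 17266) and under the stricter class limits chosen after seeing the data (EPHA5; 471 of 17375). Leaving out each chip gave 2 to 3. Without the replicate block, 2 were called (1499 of 15164), with EPHA5 at 1.55 and EFNB3 at 2.82, and the other fits within chips called 0 with and without the block. DESeq2 called 1 and 2 where edgeR called 0 for the difference between regions (547 of 15164) and ages (595), 1 in neuronal cells between regions at E14.5 (759 of 12727), 3 in neuronal cells of MGE between ages (2057 of 12727; classes from clusters gave 1, with 632 of 14439), 1 in dividing cells between regions at E12.5 (349 of 15263), 1 by LHX8 (293 of 6438) and 1 by radial glia markers (2219 of 14227; limma gave 1 at either pseudocount, 1 or 10, with 264 and 147). In dividing cells between regions at E14.5, 1 gene was called (124 of 15263). It was 2 with at least 5 cells per chip (274 of 13875), and 0 among cells with like gene numbers (0 of 13953), with the chip series as a covariate (3 of 15263), on chips numbered 160 and above (5 of 18080), with classes from clusters (65 of 14051), without chips high in mitochondrial counts (7 of 14946) and without CGE chip 160, 161 or 162 (range over chips left out 0 to 1). In dividing cells of MGE between ages, 0 were called by edgeR (929 of 15263), 3 by DESeq2 (1999), 2 after thinning to 50000 counts (955 of 11845), 2 and 1 by limma with pseudocounts 1 and 10 (1323 and 1331), 1 with no low count filter (1306 of 26922), 1 with the stricter cell filter (710 of 15207) and 0 to 1 with a chip left out (EPHA4 without vMGE chip 174 of E12.5, EPHA5 without dMGE chip 193 or vMGE chip 194 of E14.5). The cause of these changes was not tested. Over all genes, calls between neuronal and dividing cells ranged from 209 to 3984 over the alternatives, between regions in dividing cells at E14.5 from 0 to 1009 and between ages in dividing cells of MGE from 0 to 1999. No estimate of a called gene reversed. The planned limit of 1 cycling marker for neuronal cells left too few cells to fit, as did 5 alternatives for the LHX8 comparison, and with 2 chips no chip could be left out there. Reads of EPHB3 and EFNA5 came from few cells per chip, which limits what could be detected for them. The call of EFNB3 also rested on few cells, as 1 cell supplied 73.25% of its summed CPM in the median chip of neuronal cells.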
